A study of Homo sapiens with 9 samples.

Results

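The 4 H3K9me3 libraries of the mCherry control clones mCherry_3 and mCherry_4, 2 biological replicates each, were compared with each other. They were chosen by their labels and are 4 of the 9 samples of the series, and 4 of the 8 H3K9me3 libraries. All came from hTERT RPE-1 cells, a telomerase-immortalised line of human retinal pigment epithelium, in which mCherry, a red fluorescent protein without the lamin part, was overexpressed. Each clone is 1 stable clonal line, and every library of both clones was made after 24 hours with 0.05 ug/mL doxycycline. The series set these controls against LmnB1_6 and LmnB1_16, 2 clones that overexpress mCherry fused to lamin B1 under the same treatment, and its ninth sample is an input library of untreated wild-type RPE-1 cells. H3K9me3 was mapped by Cut&Run, in which an antibody directs a nuclease to cut out the marked chromatin. A difference between mCherry_3 and mCherry_4 is a difference between 2 clonal lines of the same design, and with 1 clone on each side it cannot be told apart from culture or library preparation.

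H3K9me3 is the histone mark of constitutive heterochromatin. It is written by SUV39H and SETDB1 methyltransferases and read by HP1 proteins, and it spreads over gene-poor stretches, repeats and clusters of tissue-restricted genes. Domains of the mark often lie at the nuclear lamina, and zinc finger, olfactory receptor and protocadherin gene clusters are well-known carriers.

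The authors' lists give domains of H3K9me3, stretches with more reads than the input. A base is called listed here when it lies in such a domain, and the coverage of a bin, gene or chromosome is the percentage of its bases that are listed. The lowest log2 ratio to the input in each of the 4 lists was 0.60, so a stretch that is not listed may hold signal under that floor. Domains numbered 6115 and 6060 in the mCherry_3 libraries, and 8579 and 6928 in the mCherry_4 libraries, replicates 1 and 2 in that order. They covered 528.7 and 527.8 Mb in mCherry_3 against 429.4 and 319.7 Mb in mCherry_4. The mCherry_4 lists held more domains but less sequence, and few of them were long: 51 and 49 domains exceeded 1 Mb in mCherry_3, and 4 and 1 in mCherry_4. Reads within domains totalled 6959349 and 6869411 in mCherry_3 and 2855378 and 3840496 in mCherry_4. The depth relative to the input that the log2 values imply was 0.819 and 0.816 in mCherry_3, and 0.421 and 0.859 in mCherry_4. The shortest list, that of mCherry_4 replicate 2, was therefore not the shallowest library.

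No difference beyond the sampling noise was found between the replicates of mCherry_3 over the 229 domains with identical coordinates in both, where a chi-square test of the reads gave 1.08 per degree of freedom and p = 0.197. Domains on which the lists disagree, such as that over the olfactory receptor gene OR2L3, are not in this test. On the chi-square result the mCherry_3 replicates were counted as 1 sample in the reported tests, although their lists were not identical. That result cannot show that 2 biological replicates are 1 sample, because 1 pair of different clones also stayed within the 0.05 threshold. This pair, LmnB1_6 replicate 2 and mCherry_3 replicate 2, gave 1.27 per degree of freedom over 47 identical domains. Every other pair of different clones was past the threshold, and so were the LmnB1_16 replicates, at 1.10 over 648 domains. Over the 28 domains that were identical in both mCherry_4 libraries the statistic was 1.67 per degree of freedom, which is past the 0.05 threshold of the chi-square test, and these libraries entered as 2 samples. With 1 sample against 2, the smallest p that an exact permutation test can reach is 0.333. The difference in covered length, mCherry_4 minus mCherry_3, was -153.7 Mb and had an exact two-sided permutation p of 0.667.

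Shown first are promoters wholly in domains in both libraries of 1 clone, with no listed base in either library of the other. At these points the listing differed between the 2 control lines at the start of a gene. An unlisted promoter may hold signal under the log2 floor, so opposite chromatin states are not shown. Of 20037 protein-coding genes, 15843 have a promoter sequence in the RefSeq table of build GRCh38.p14, running from 250 bases before to 50 after the start. Of these promoters, 259 lay wholly in domains of all 4 libraries, 155 were listed in mCherry_3 alone and 5 in mCherry_4 alone. The sequences below are 5′ to 3′ in lower case, with each CG dinucleotide, the target of DNA methylation, in capitals. The first 4 are among the 5 listed in mCherry_4 alone, and PTPRG and KCNA5 were listed in mCherry_3 alone.
PLG promoter (GRCh38.p14, chr6:160701943-160702242, plus strand): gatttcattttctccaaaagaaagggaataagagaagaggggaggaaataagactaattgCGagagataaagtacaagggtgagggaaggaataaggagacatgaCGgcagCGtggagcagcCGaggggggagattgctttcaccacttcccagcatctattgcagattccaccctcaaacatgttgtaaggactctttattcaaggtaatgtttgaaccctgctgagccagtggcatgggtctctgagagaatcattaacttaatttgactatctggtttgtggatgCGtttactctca
P2RY10 promoter (GRCh38.p14, chrX:78945141-78945440, plus strand): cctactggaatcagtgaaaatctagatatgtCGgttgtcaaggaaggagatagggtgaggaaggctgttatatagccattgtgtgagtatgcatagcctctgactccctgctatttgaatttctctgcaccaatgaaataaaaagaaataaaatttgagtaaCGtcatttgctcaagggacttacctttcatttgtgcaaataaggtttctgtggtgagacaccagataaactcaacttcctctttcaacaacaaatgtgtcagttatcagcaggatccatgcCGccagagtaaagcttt
TRIML2 promoter (GRCh38.p14, chr4:188109554-188109853, minus strand): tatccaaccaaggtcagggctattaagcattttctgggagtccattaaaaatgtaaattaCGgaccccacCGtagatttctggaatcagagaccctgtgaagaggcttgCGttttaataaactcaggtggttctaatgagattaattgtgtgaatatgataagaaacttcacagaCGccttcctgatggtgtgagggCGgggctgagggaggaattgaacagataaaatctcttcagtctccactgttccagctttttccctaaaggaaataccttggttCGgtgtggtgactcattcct
ZNF84 promoter (GRCh38.p14, chr12:133037259-133037558, plus strand): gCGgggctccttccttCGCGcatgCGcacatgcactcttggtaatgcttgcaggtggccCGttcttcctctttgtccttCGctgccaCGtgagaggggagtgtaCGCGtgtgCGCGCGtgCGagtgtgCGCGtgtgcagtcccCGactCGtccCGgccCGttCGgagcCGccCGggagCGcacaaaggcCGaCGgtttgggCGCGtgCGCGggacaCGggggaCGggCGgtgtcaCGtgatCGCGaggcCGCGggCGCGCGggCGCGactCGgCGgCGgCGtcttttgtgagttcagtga
PTPRG promoter (GRCh38.p14, chr3:61561321-61561620, plus strand): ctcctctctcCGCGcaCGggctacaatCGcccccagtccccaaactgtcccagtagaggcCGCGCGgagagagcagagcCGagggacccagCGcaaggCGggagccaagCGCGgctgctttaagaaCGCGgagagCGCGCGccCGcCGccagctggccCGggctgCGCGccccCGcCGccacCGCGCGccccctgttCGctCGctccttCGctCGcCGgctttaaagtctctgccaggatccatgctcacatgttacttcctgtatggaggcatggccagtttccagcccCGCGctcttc
KCNA5 promoter (GRCh38.p14, chr12:5043629-5043928, plus strand): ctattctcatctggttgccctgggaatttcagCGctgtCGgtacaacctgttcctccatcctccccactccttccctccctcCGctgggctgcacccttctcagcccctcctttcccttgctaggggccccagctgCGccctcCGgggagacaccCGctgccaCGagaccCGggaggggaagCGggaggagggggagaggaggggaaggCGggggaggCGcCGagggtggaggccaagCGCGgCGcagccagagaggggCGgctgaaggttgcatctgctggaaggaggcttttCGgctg

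The promoters of PLG and P2RY10 were poor in CG, with 5 and 3 CG dinucleotides in 300 bases. That of TRIML2 had 6, while that of ZNF84 had 46. PTPRG had 34, above the upper quartile of 20 over promoters in mCherry_3 alone, and KCNA5 had 17. The median was 3 over promoters listed in all 4 libraries, 6 over the 5 in mCherry_4 alone and 8 over those in mCherry_3 alone. It was 23 over the 14871 listed in none of the 4. Promoters under the shared mark were thus CG-poor, and those in mCherry_3 alone lay between. The letters TATAAA, searched on both strands, occurred in 25.9% of the promoters listed in all 4 libraries, in 12.9% of those in mCherry_3 alone and in 9.63% of all promoters. GGGCGG occurred in 20.5%, 37.4% and 58.5% in the same order, and CCAAT in 39.8%, 38.1% and 36.4%. No motif contains another, and the matches describe the letters in this window and are not evidence of a bound factor.

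Of the listing patterns, the largest was that shared by all 4 control libraries. The 4 lists together covered 603 Mb, of which 259 Mb (43.0%) was listed in all 4 libraries. A further 119 Mb (19.7%) was missing from mCherry_4 replicate 2 alone, and 34.8 Mb (5.77%) from mCherry_4 replicate 1 alone. Both mCherry_3 libraries and neither mCherry_4 library listed 70.6 Mb (11.7%). Both mCherry_4 libraries and neither mCherry_3 library listed 5.74 Mb (0.951%). The overlap of covered bases, given as the Jaccard index (shared bases over the bases of either list), was 0.845 between the mCherry_3 replicates and 0.579 between the mCherry_4 replicates. The 4 pairs of different clones had indices of 0.690, 0.553, 0.691 and 0.551. Pairs of different clones lay on either side of the mCherry_4 pair, with a mean of 0.621. With every list cut to the same covered length the mean between clones was 0.535, the mCherry_4 pair had 0.583 and the mCherry_3 pair 0.715, so the order of the first 2 values turned. The sharing was lopsided, since 91.1% to 94.5% of mCherry_4 bases fell inside each mCherry_3 list, while 57.0% to 74.1% of mCherry_3 bases fell inside each mCherry_4 list.

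The longest stretch listed without a break in all 4 libraries was 2343 kb on chromosome 10 (chr10:81716001-84059000), around NRG3, which encodes a neuregulin ligand of ERBB4. NRG3 was covered at 100% in all 4 control libraries. Of the 10485 bins of 100 kb with any coverage, 3001 (28.6%) were at least 50% covered in all 4 libraries, and they formed 695 blocks. Of these bins, 64.1% held no protein-coding gene, against 49.3% of all bins with any coverage. The longest blocks were 3000 kb on chromosome 17 with CA10 and KIF2B (chr17:51800001-54800000), 2900 kb at the start of chromosome 3 with the neural adhesion genes CHL1, CNTN6 and CNTN4 (chr3:100001-3000000), and 2800 kb on chromosome 6 with the ephrin receptor gene EPHA7 (chr6:90800001-93600000). The chromosome 17 block was 99.9% and 99.6% covered in mCherry_3 and 94.5% and 93.7% in mCherry_4. The other 5 of the 8 longest blocks held GRM7, FAT3, DCC, NRG3 and NXPH1, genes of neurons and of cell adhesion.

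**Figure D1:**
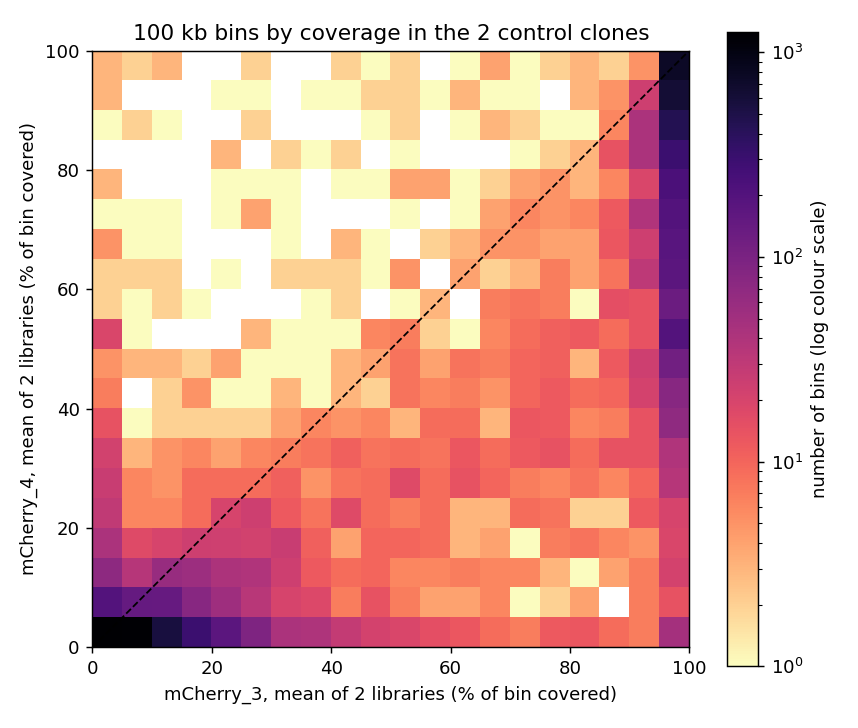
Coverage of 100 kb bins by H3K9me3 domains, as the mean of the 2 mCherry_3 libraries (x axis, percent) and of the 2 mCherry_4 libraries (y axis, percent), with colour giving the number of bins on a log scale and the dashed line marking equal coverage. Of the 10485 bins, 9142 lie below the line, 1128 above it and 215 on it, and the corner of low mCherry_3 and high mCherry_4 coverage holds few bins.

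Over the 7918 bins with a mean coverage of at least 5%, coverage averaged 65.3% in mCherry_3 and 47.0% in mCherry_4, a mean difference of -18.3 percentage points and a median of -13.5. Both mCherry_4 libraries were above both mCherry_3 libraries in 240 bins (3.03%) and below both in 4870 (61.5%). The mean absolute difference was 7.44 points between the mCherry_3 replicates, 18.9 between the mCherry_4 replicates and 21.9 between the clone means. The limma fit across bins, with Benjamini-Hochberg adjustment, called 0 bins higher and 0 lower in mCherry_4, with a lowest adjusted p of 0.0840. At an unadjusted p under 0.05 there were 1842 bins, 1754 of them lower. With the 4 libraries entered as 4 samples the same test called 34 bins higher and 352 lower.

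Presence in mCherry_4 alone is the direction that list length does not favour. Only 14 of the 10485 bins (0.134%) were at least 50% covered in both mCherry_4 libraries and at most 10% in both mCherry_3 libraries, and in all 14 the mCherry_3 coverage was 0 in both replicates. They formed 9 blocks on 5 chromosomes, 4 of them on chromosome 8. In the opposite direction 123 bins (1.17%) in 84 blocks were listed in mCherry_3 alone. Both counts depended on single libraries: without mCherry_4 replicate 2 there were 75 bins in mCherry_4 alone, without either mCherry_3 replicate 29, and without mCherry_4 replicate 1 there were 646 in mCherry_3 alone. With every list cut to the same covered length of 319.7 Mb, highest score first, 313 bins were in mCherry_4 alone and 60 in mCherry_3 alone. Under the same cut, which also picks domains by score, 34 gene bodies were in mCherry_4 alone and 53 in mCherry_3 alone, so the excess turned for bins and not for genes.

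The longest block in mCherry_4 alone was 400 kb on chromosome 13 without a protein-coding gene (chr13:103400001-103800000). It was covered at 88.5% and 83.8% in the mCherry_4 libraries and at 0% in both mCherry_3 libraries. The 4 LmnB1 libraries covered it at 98.3%, 99.3% (LmnB1_16), 89.5% and 77.5% (LmnB1_6), so it was listed in every clone but mCherry_3. In mCherry_4 its domains had log2 ratios of 0.82 to 1.02 in replicate 1 and 0.64 to 1.15 in replicate 2.

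A 100 kb block on chromosome 7 (chr7:110200001-110300000) had the same pattern, with 95% and 100% in mCherry_4, 0% in mCherry_3 and 100% in all 4 LmnB1 libraries. It overlapped the longest unbroken stretch of mCherry_4 alone, 118 kb (chr7:110249001-110367000). The mCherry_4 domains of this block had log2 ratios of 0.83 to 0.96 in replicate 1 and 0.70 in replicate 2. On chromosome 8 a block overlapping CRISPLD1 was covered at 82.0% and 100% in mCherry_4, 0% in mCherry_3 and 100% in the 4 LmnB1 libraries. CRISPLD1, which encodes a secreted cysteine-rich protein, was itself covered at 0%, 0%, 34.0% and 92.0% in the 4 control libraries. A gene-free block on chromosome 2 (chr2:14000001-14100000) was covered at 87.0% and 68.0% in mCherry_4, at 0% in mCherry_3 and at 91.0% to 100% in the LmnB1 libraries. In 8 of the 14 bins, all 4 LmnB1 libraries were at least 50% covered.

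Other blocks of mCherry_4 alone varied among the lamin clones. A block within NRG1 (chr8:31700001-31800000), a neuregulin gene, was covered at 87.0% and 90% in mCherry_4 and 0% in mCherry_3, against 35.0%, 14.0%, 96.0% and 0% in the LmnB1 libraries. Its mCherry_4 domains had log2 ratios of 0.71 to 0.88 in replicate 1 and 0.62 to 0.64 in replicate 2. A block in ST18, which encodes a zinc finger transcription factor of neurons, was covered at 86.0% and 72.0% in mCherry_4. The GAREM1 block on chromosome 18 (chr18:32300001-32500000) was covered at 78.0% and 60%. LmnB1_16 carried both of these blocks, at 100% and 94.0% for ST18 and 68.0% and 67.5% for GAREM1, while LmnB1_6 replicate 2 listed neither.

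**Figure D2:**
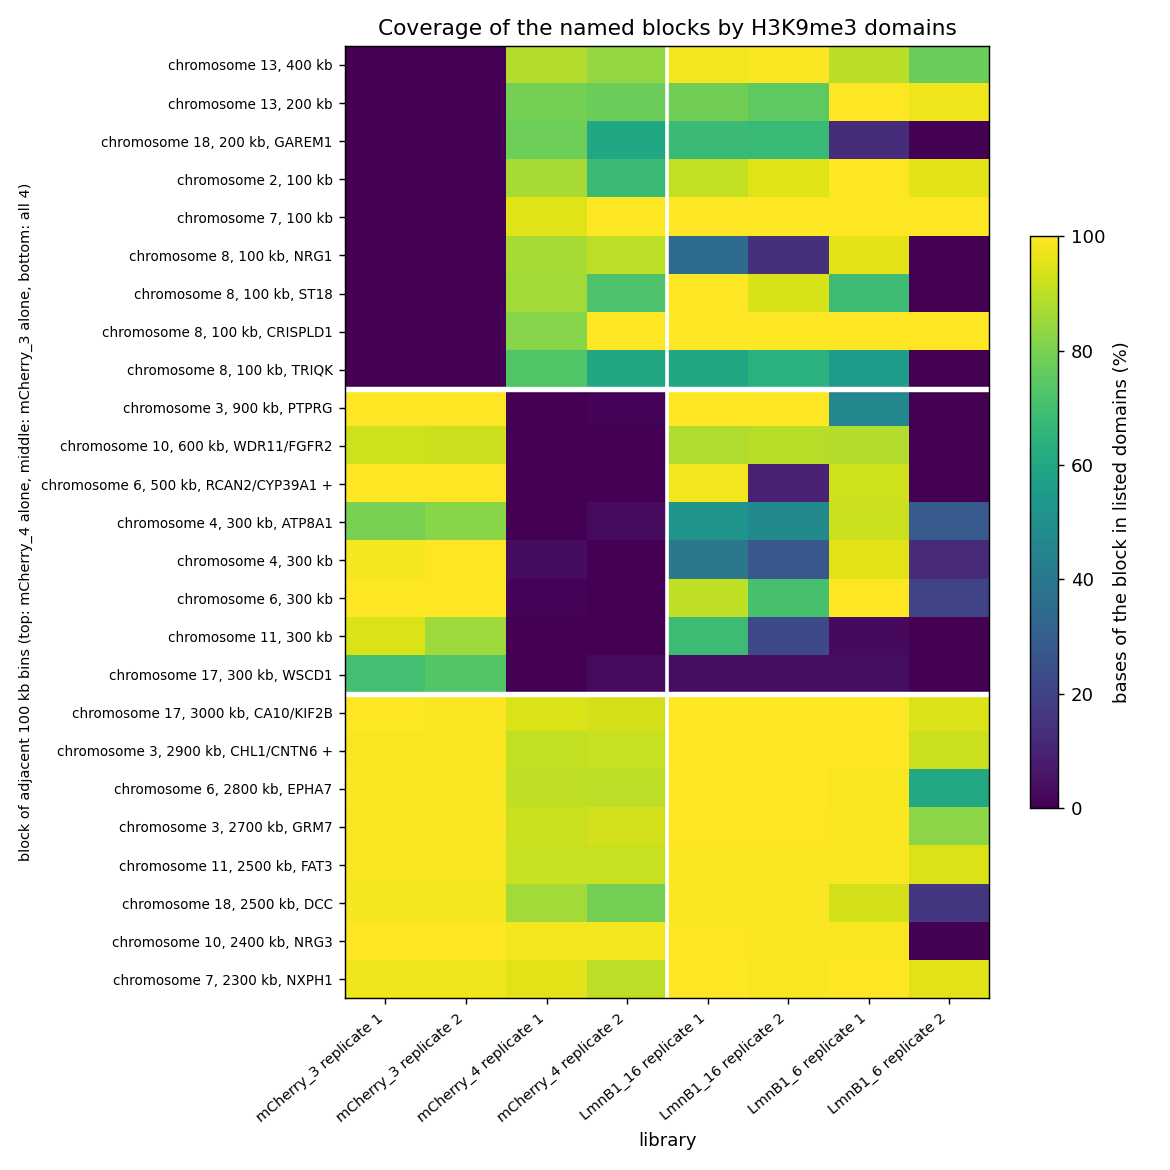
Coverage by H3K9me3 domains (colour, percent of bases) of the 9 blocks listed in mCherry_4 alone (top), the 8 longest listed in mCherry_3 alone (middle) and the 8 longest at least 50% covered in all 4 control libraries (bottom), in each of the 8 H3K9me3 libraries (columns). The top rows are at 0% in both mCherry_3 columns, 5 of them are above 70% in all 4 LmnB1 columns, and LmnB1_6 replicate 2 is low in most of the middle rows.

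Among stretches of mCherry_3 alone, the longest was 922 kb on chromosome 3 (chr3:61408001-62330000) over PTPRG, which encodes a receptor tyrosine phosphatase, and CEP15. PTPRG (chr3:61561571-62297609) was 100% covered in both mCherry_3 libraries and 0% in both mCherry_4 libraries. In mCherry_3 the stretch belonged to a single domain with 36767 and 37560 reads and log2 ratios of 0.78 and 0.77. LmnB1_16 covered PTPRG at 100% in both replicates, and LmnB1_6 at 34.4% and 0%. The neighbouring gene FHIT, at a common fragile site, held a 424 kb stretch listed in all 4 control libraries (chr3:60822001-61246000), so the clones parted between these neighbours.

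The second was 604 kb on chromosome 6 (chr6:46123001-46727000) over 8 genes: CLIC5, ENPP4, ENPP5, RCAN2, CYP39A1, SLC25A27, TDRD6 and PLA2G7. A further stretch of 285 kb followed it (chr6:46745001-47030000) with the adhesion G protein-coupled receptor genes ADGRF5 and ADGRF1, the metalloprotease gene MEP1A, and ANKRD66. RCAN2, a regulator of calcineurin, and CYP39A1, an oxysterol hydroxylase, were 100% covered in mCherry_3 and 0% in mCherry_4. Another stretch of 564 kb on chromosome 10 (chr10:120945001-121509000) reached into FGFR2, a fibroblast growth factor receptor gene, which was covered at 55.5% and 25.5% in mCherry_3 and 0% in mCherry_4. The block at WSCD1 on chromosome 17 (chr17:5800001-6100000) was covered at 70.0% and 73.3% in mCherry_3 and at no more than 3.67% in any other library, the only 1 of the 8 longest blocks in which no LmnB1 library passed 10%.

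For values by bases, each base took the log2 ratio of the whole domain around it, so signal at the bases themselves was not measured. By bases, the domains around sequence of mCherry_3 alone had lower log2 ratios, while by domains the medians were close. The median log2 ratio in mCherry_3 replicates 1 and 2 was 0.92 and 0.90 over bases listed in all 4 libraries, and 0.83 over bases listed in mCherry_3 alone in both. Of the latter bases, 19.7% and 17.3% lay in domains with a log2 ratio under 0.70, against 2.27% and 1.98% of the shared ones. Counted by domain, with each domain weighing the same, the median in replicate 1 was 0.89 over domains with no base listed in mCherry_4 and 0.91 over those at least 50% covered in both mCherry_4 libraries. The upper quartile was higher in the former, at 1.14 against 1.01. Their median lengths were 10 and 120 kb. In mCherry_4 the medians were 0.88 and 0.71 over shared bases and 0.84 and 0.69 over bases of mCherry_4 alone. The whole mCherry_4 replicate 2 list sat nearer the floor, with 40.7% of its domains under 0.70, against 14.1% to 18.7% in the other control libraries. Length went with sharing as well: of the stretches of 10 to 50 kb listed in both mCherry_3 replicates, 34.3% had no base listed in either mCherry_4 library, against 1 of 669 stretches of 200 to 1000 kb and 0 of 22 longer ones. A longer stretch is more easily touched at some base, so this count favours it. The bases listed in neither mCherry_4 library were 41.4% at 10 to 50 kb and 16.4% at 50 to 200 kb. They were 7.47% at 200 to 1000 kb and 5.90% in longer stretches.

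Bases of either clone alone were also found in the lamin libraries. The 4 LmnB1 libraries, LmnB1_16 replicates first, listed 81.9%, 71.0%, 73.6% and 45.6% of the bases of mCherry_4 alone. They listed 80.6%, 66.5%, 60.5% and 21.3% of those of mCherry_3 alone, and 98.8%, 97.1%, 94.9% and 66.3% of those shared by all 4 controls. Sequence that differed between the controls was thus listed less widely in the lamin clones than the shared sequence, in each of the 4 libraries.

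Of the 20037 protein-coding genes, 17414 had no listed base in any control library and 2623 had some. In all 4 libraries 510 genes were at least 50% covered and 228 at least 90%. The longest of the 228 were AGBL4, LRRC4C, NRG3, NELL1, GRM7, KCNN2, KCNH8, PDZRN4, PAPPA2 and FAM135B, among them synaptic, receptor and potassium channel genes. AGBL4 was covered at 99.6% and 98.9% in mCherry_3 and at 94.8% in mCherry_4 replicate 1. Only 4 genes (0.152% of those with any coverage) were listed in mCherry_4 alone by the rule used for bins, and 113 (4.31%) in mCherry_3 alone.

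The 4 genes of mCherry_4 alone were at 0% in both mCherry_3 libraries. APCS, which encodes the serum amyloid P component, was covered at 83.2% and 100% in mCherry_4 (chr1:159587826-159588865). P2RY10, a lymphoid G protein-coupled receptor gene, was covered at 96.0% and 74.2% (chrX:78945391-78963727). GAREM1, an adaptor of growth factor receptor signalling, was covered at 79.8% and 55.0%, and PLG, which encodes plasminogen, at 73.0% and 51.6%. The limma fit called none of the 4: their adjusted p-values were 0.15, 0.22, 0.32 and 0.29 in that order. All 4 rested on domains of 12 to 79 kb, such as the 12 kb domain with 149 reads over APCS in mCherry_4 replicate 2. In that replicate the log2 ratios lay near the 0.60 floor. They were 0.66 for APCS, 0.61 for P2RY10, 0.65 to 0.76 for GAREM1 and 0.67 for PLG. In replicate 1 they were 0.66, 0.88, 0.78 to 1.05, and 0.76 to 0.79 in the same order. LmnB1_16 replicate 1 covered APCS and P2RY10 at 100%, GAREM1 at 59.3% and PLG at 49.9%, and LmnB1_6 replicate 2 covered none of them. Without 1 library at a time the count of such genes was between 6 and 29, and it was 29 without mCherry_4 replicate 2.

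The promoters of TRIML2 and ZNF84 differed in listing while most of their gene bodies did not. TRIML2, a tripartite motif family-like gene, was covered at 80.3% and 91.3% in mCherry_3 and 100% in both mCherry_4 libraries. ZNF84, a C2H2 zinc finger gene of the cluster at the end of 12q, was covered at 90.3% in both mCherry_3 libraries and 100% in mCherry_4. In both genes it was the start, shown above, that lay outside the mCherry_3 domain. All 4 LmnB1 libraries listed the ZNF84 promoter.

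Genes of mCherry_3 alone were mostly short, with a median length of 10.2 kb, and lay on 22 chromosomes. Neighbours in the same stretch count separately among the 113, such as RCAN2, CYP39A1, SLC25A27 and TDRD6 in the 604 kb stretch of chromosome 6. The 113 genes fell into different groups by their coverage in the lamin clones. In 8 of the 113, all 4 LmnB1 libraries were at least 50% covered, so that mCherry_4 was the clone apart: PRAMEF15, FRG2C, NKX1-1, KCNA5, OR4M1, RCVRN, ZNF773 and ARHGAP8. KCNA5, a voltage-gated potassium channel gene (chr12:5043879-5046788), was covered at 100% in the 6 libraries of the other 3 clones and at 0% in both of mCherry_4. In mCherry_3 its domain spanned 254 and 253 kb, with log2 ratios of 1.03 and 1.05. The neighbouring channel gene KCNA1 was covered at 100%, 100%, 74.9% and 100% in the 4 control libraries, so the difference was local. RCVRN, which encodes the photoreceptor calcium sensor recoverin (chr17:9896320-9905271), was likewise at 100% in 6 libraries and 0% in mCherry_4. PRAMEF15 and FRG2C have near-copies, so their coverage is uncertain.

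In 19 of the 113 genes all 4 LmnB1 libraries were at 0%, so that mCherry_3 was the clone apart. EDN3, which encodes endothelin 3, a ligand needed by melanocyte and enteric neuron precursors, was covered at 100% in both mCherry_3 libraries and 0% in the other 6. Its domains in mCherry_3 had log2 ratios of 0.79 and 0.71 (chr20:59300611-59325992 for the gene). AQP4, the glial water channel gene, was at 100% in both mCherry_3 libraries and 0% in the other 6, in domains of 677 and 525 kb with log2 ratios of 0.89 and 0.85. ENPP4, PPDPFL, CD209 and RDH16 showed the same values as EDN3. CYP2B6, a drug-metabolising cytochrome gene, was covered at 54.3% and 91.2% in mCherry_3, and AKAP4, a sperm flagellum gene, at 100% and 80.4%. These 19 included members of families with near-copies, SPRR2A, SPRR2G and OR2J1.

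The other genes of mCherry_3 alone varied among the lamin libraries. IGF1, the insulin-like growth factor gene, was covered at 80.4% in both mCherry_3 libraries and 0% in mCherry_4, against 100%, 100%, 97.9% and 12.9% in the LmnB1 libraries. TBX3, a T-box transcription factor gene, was covered at 73.1% and 100% in mCherry_3 and 0% in mCherry_4, with 100% in LmnB1_16. NTN1, the axon guidance ligand netrin 1, also belonged to the 113. At least 50% coverage was found for 79 and 54 of the 113 genes in LmnB1_16, and for 49 and 12 in LmnB1_6. The count of 113 was 288 without mCherry_4 replicate 1, 192 and 171 without mCherry_3 replicate 1 or 2, and 53 with lists of equal covered length.

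The limma fit over the 1903 genes with a mean coverage of at least 5% called 28 genes (1.47%) higher and 582 (30.6%) lower in mCherry_4, with Benjamini-Hochberg adjustment. These calls need care, because 578 of the 610 had equal values in both mCherry_4 libraries, 530 of them 0% in both, so that their spread came from the model and not from replicates. Of the 28 called higher, only 6 had both mCherry_4 libraries above both mCherry_3 libraries, ABCB5, TRIML2, ZNF84, ZNF251, ZNF724 and OSBPL5. Among them ABCB5, an efflux transporter gene, had the largest difference, with 0% in both mCherry_3 libraries and 41.0% and 42.5% in mCherry_4. The genes called with the smallest adjusted p included OR2L3, OR2L2 and OR2M5, olfactory receptors on chromosome 1. OR2L3, like its neighbours OR2L2 and OR2M5, was at 100% in both mCherry_4 libraries, but at 100% and 0% in the mCherry_3 replicates. The clones therefore did not part at these genes. In mCherry_3 replicate 1 OR2L3 lay in a domain of 259 kb with 3828 reads and a log2 ratio of 1.07. In replicate 2 no domain was listed across it, although the flanking domains of 195 and 269 kb had log2 ratios of 1.11 and 1.03. Of the 582 called lower, 401 had the clones apart. With each library's mean subtracted the fit called 0 genes in either direction, and with 4 samples it called 5 higher and 214 lower, so the gene calls depend on the scaling and on how the replicates are counted.

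Gene families known for H3K9me3 were described by fixed lists. Neighbouring genes of a list can share a domain, so the genes counted are not independent. Over all 1903 genes tested, both mCherry_4 libraries lay below both mCherry_3 libraries in 49.8% and above in 1.79%, limma called 30.6% lower and 1.47% higher, and the median difference was -18.2 percentage points. The counts of each list are given with their shares, to be set against these. Zinc finger genes on chromosome 19, which encode KRAB and other C2H2 repressors, averaged 59.8% and 61.8% coverage in mCherry_3 and 51.6% and 37.2% in mCherry_4. Of the 246, 199 had some coverage and 87 were at least 50% covered in all 4 libraries. Both mCherry_4 libraries were below in 78 of 196 tested (39.8%) and above in 5, ZNF557, ZNF426, ZNF625, ZNF136 and ZNF724, and limma called 21 lower (10.7%) and 4 higher. ZNF578, ZNF90 and ZNF257 were 100% covered in all 4, and ZNF302, ZNF230 and ZNF773 were listed in mCherry_3 alone. The 263 zinc finger genes of the other chromosomes averaged 27.4% and 28.4% in mCherry_3 and 23.3% and 17.6% in mCherry_4. Zinc finger genes are near-copies of each other, and their coverage is uncertain wherever reads fit several copies.

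Clustered protocadherins, adhesion proteins that give neurons their surface identity, stood at 31.4% and 23.6% in mCherry_3 and 11.6% and 1.89% in mCherry_4. Of the 53 genes, 37 had some coverage, in the PCDHA, PCDHB and PCDHG groups, and 22 were tested. Among the PCDHB genes, PCDHB15 was 100% covered in all 4 libraries, PCDHB2 and PCDHB4 in all but mCherry_4 replicate 2, and PCDHB7, PCDHB8, PCDHB9, PCDHB10 and PCDHB16 in mCherry_3 alone. Those of mCherry_3 alone lie side by side (chr5:141172644-141195647) and are not separate results. Both mCherry_4 libraries were below in 9 of the 22 (40.9%), and limma called 10 lower (45.5%) and 0 higher. The genes are near-copies and their coverage is uncertain. Cornified envelope genes (SPRR and LCE), which build the outer skin barrier, were the list with the highest mean in mCherry_3, at 84.2% and 76.2%, against 42.7% and 19.7% in mCherry_4. Of the 30, 8 were listed in mCherry_3 alone, LCE3A, LCE2D, LCE4A, LCE1F, SPRR5, SPRR3, SPRR2A and SPRR2G, and limma called 11 of 26 lower (42.3%) and 0 higher. Both mCherry_4 libraries were below in 38.5% of the 26, under the 49.8% of all genes tested. LCE1C, SPRR1B and SPRR2E were 100% covered in all 4 libraries. The 8 genes of mCherry_3 alone lie in the same region (chr1:152622834-153203278), so they are not separate results.

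Olfactory receptors, the odorant receptors of the nasal epithelium, averaged 35.5% and 34.1% in mCherry_3 and 29.3% and 24.4% in mCherry_4. Their median difference over the 160 tested was 0 points, and both mCherry_4 libraries were below in 24 (15%) and above in 0. Keratin-associated proteins of the hair shaft also had a median difference of 0 over 43 tested, with 30 of 94 genes at least 90% covered in all 4 libraries, among them KRTAP24-1, KRTAP26-1 and KRTAP11-1. KRTAP10-5, KRTAP10-9 and KRTAP5-6 were listed in mCherry_3 alone. Both mCherry_4 libraries were below in 6.98% of the 43, and limma called 10 lower (23.3%) and 0 higher. These families hold short genes that mostly lie wholly inside or outside a domain, so their medians say little about partial loss.

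Of the contactin, CNTNAP and neurexin genes, synaptic adhesion molecules, both mCherry_4 libraries lay below in 9 of 9 tested. Their median difference was -9.60 points, smaller in size than the -18.2 of all genes tested, and limma called 2 lower (22.2%), CNTN4 and CNTN6, and 0 higher. CNTN6 was covered at 96.5% and 98.4% in mCherry_3 and 91.0% in both mCherry_4 libraries. Glutamate, GABA and glycine receptor genes lay below in 14 of 18 tested (77.8%) with a median of -16.9 points, close to that of all genes, and limma called 1 lower (5.56%), GABRE, which was covered at 87.6% and 82.9% in mCherry_3 and 0% in mCherry_4. Fragile site genes, long genes prone to breakage under replication stress, lay below in 9 of 12 tested (75%), and limma called 1 lower (8.33%). The long fragile site gene WWOX was covered at 98.8% and 97.9% in mCherry_3 and 80.8% and 41.1% in mCherry_4. Potassium channel genes lay below in 13 of 15 tested (86.7%), and limma called 6 lower (40%) and 0 higher. Collagen genes lay below in 7 of 8 (87.5%) and above in 1, with 3 (37.5%) called lower by limma. COL6A1 and COL6A2, subunit genes of collagen VI, had 43.2% and 51.8%, and 46.1% and 51.8%, in mCherry_3 and 0% in mCherry_4. The median difference was -15.3 points over fragile site genes and -15.5 over potassium channel genes, against -18.2 over all genes tested. Over the collagen genes tested it was -40.6.

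**Figure D3:**
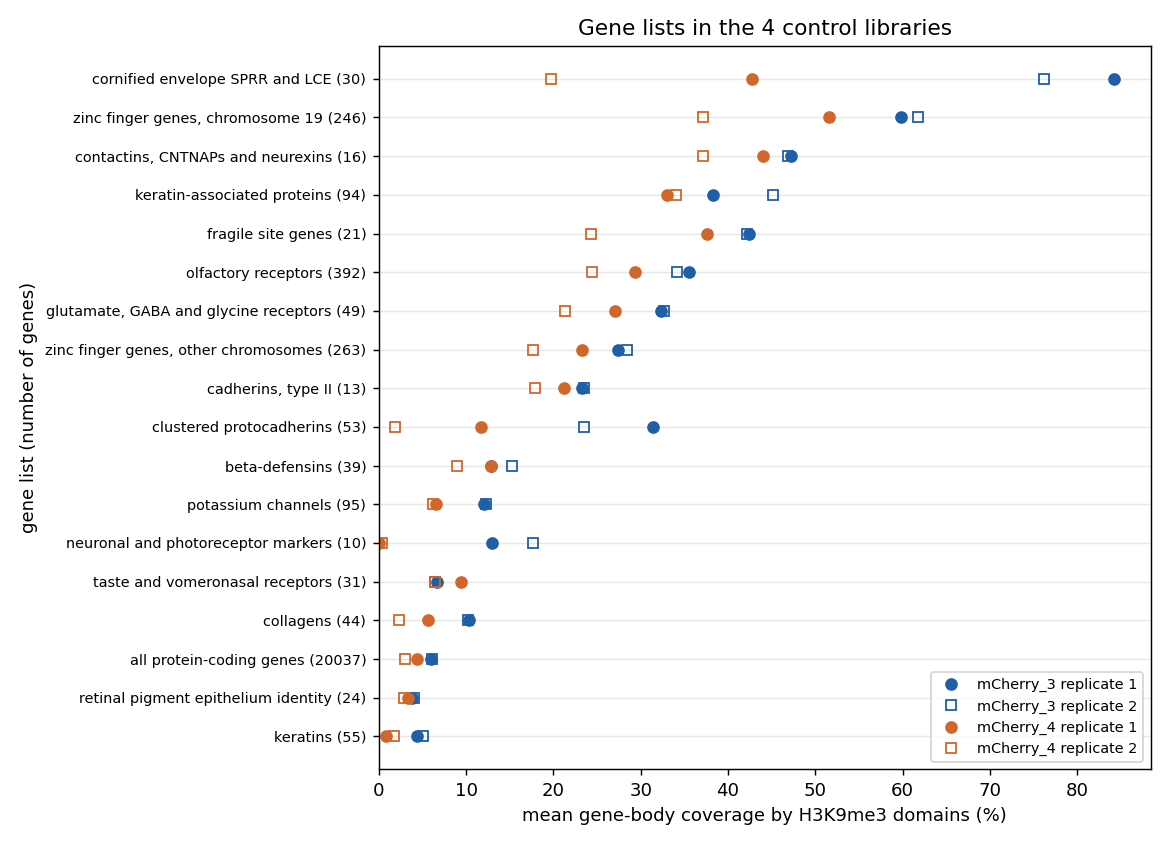
Mean gene-body coverage by H3K9me3 domains (x axis, percent) over each gene list (y axis, number of genes in brackets) in the 4 control libraries, with circles for replicate 1 and squares for replicate 2. In most lists mCherry_3 lies to the right of mCherry_4, the SPRR and LCE genes range from 19.7% to 84.2%, and taste and vomeronasal receptors are an exception, with mCherry_4 replicate 1 highest at 9.39%.

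Cell type markers were read by the same measure, which reports a repressive mark and not expression. Of 24 retinal pigment epithelium identity genes, 23 had no listed base in any control library, as did 17414 of the 20037 protein-coding genes. The exception, OCA2, a melanosome gene, was covered at 92.0% and 96.2% in mCherry_3 and 79.1% and 69.7% in mCherry_4. None of 10 fibroblast markers, 39 HOX genes or 81 ribosomal protein genes had a listed base in the 4 libraries, so these counts do not tell the cell types apart and are no check of identity. Of 10 neuronal and photoreceptor markers, 5 had some coverage, and RCVRN was the only 1 in which both replicates of mCherry_3 reached 50%. Among 25 genes of H3K9 methylation and HP1 proteins only KDM4B had a listed base, at 2.17% in mCherry_3 replicate 1. Among 17 genes of the lamina only SYNE2 had one, at no more than 2.80% in any control library.

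Chromosomes differed in how much of their domain length mCherry_4 kept. Both mCherry_4 libraries covered less than both mCherry_3 libraries on 23 of 24 chromosomes and more on 0. The exception was Y, with only 0.133 and 0.149 Mb listed in mCherry_3 and 0.135 and 0.012 Mb in mCherry_4, too little to compare. Whether these reads came from a Y chromosome at all was not tested. The ratio of mCherry_4 to mCherry_3 covered length was 0.709 over all chromosomes, 0.813 for replicate 1 and 0.605 for replicate 2. The ratio was highest on chromosomes 13 and 14, at 0.832 and 0.814. It was 0.555 on chromosome 22 and 0.568 on X, where the 4 libraries covered 41.3, 41.6, 29.3 and 17.8 Mb. As a share of each library's own length, both mCherry_4 libraries were above both mCherry_3 libraries on 9 chromosomes (5, 8, 9, 11, 13, 14, 15, 18 and 21) and below on 6 (16, 17, 19, 20, 22 and X). With lists of equal covered length the number of chromosomes below was 11. On chromosome 10 the mCherry_4 replicates stood far apart, at 27.1 and 14.2 Mb, while the mCherry_3 replicates covered 30.3 and 30.1 Mb.

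**Figure D4:**
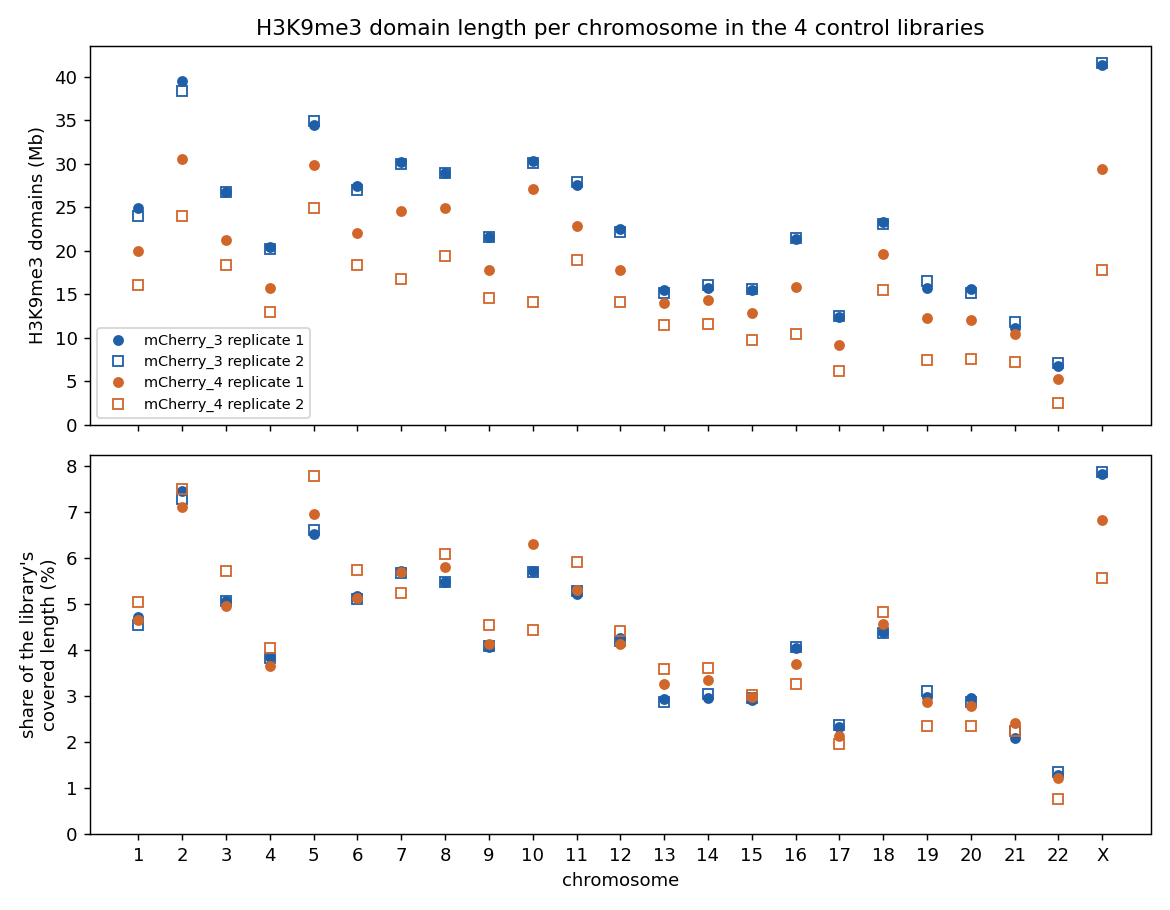
Length of H3K9me3 domains per chromosome in Mb (top) and as a percentage of the library's whole covered length (bottom) in the 4 control libraries, with circles for replicate 1 and squares for replicate 2. The mCherry_4 points lie below the mCherry_3 points on every chromosome shown in the top panel, and X shows the widest gap, from 41.6 down to 17.8 Mb.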

How the data were processed

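Cut&Run libraries against H3K9me3 (Abcam ab8898) followed the CUTANA protocol, per the labels' protocols. Tools listed in the submitters' processing notes are deepTools, DESeq2, DiffBind 3.0.15 and SICER, with the build GRCh38 (hg38); for the aligner and its settings, not given in the sources used here, nothing is assumed. Each deposited list holds, per domain, the authors' read counts in the library and the input, p-values, a log2 ratio to the input and a score.

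Coverage of 100 kb bins, RefSeq gene bodies (GRCh38.p14) and chromosomes was computed from the domain bounds in 1000-base steps (Python 3.11.15). For features with a mean coverage of at least 5%, limma 3.58.1 (R 4.3.3) compared the clones at an adjusted p of 0.05; the script was tested on simulated data. Only 5 domains had identical coordinates in all 4 lists, so reads were not tested. Depth is known here only as reads in domains and as the depth relative to the input that the log2 values imply.

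Genes were named by rank: up to 10 per direction called by limma, up to 12 listed in each clone alone, the 10 longest at 90% or more in all libraries, up to 5 per list, and the 8 longest blocks of each class; others were chosen after their values were seen. Members and lists were chosen with earlier results of these data known. Alternatives were the filter, list length, domain length, joining, bin size, scaling, sample counting and leaving out each library.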

Additional observations from a re-analysis of the deposited data

How the results depend on the processing

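Coverage depends on list length, on a log2 floor and on 1 clone per arm; p-values with 1 sample against 2 rest on a borrowed spread. Covered length stayed lower in mCherry_4 under all alternatives run, at -209 to -98.8 Mb without 1 library at a time. With domains under 10 kb apart joined, the difference in number of domains was -601 in place of 1666. At equal covered length 11 chromosomes were lower, and the Jaccard index was 0.535 between clones, 0.583 between the mCherry_4 replicates and 0.715 between the mCherry_3 replicates.

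Bins called higher and lower by limma were 0 and 0 in the reported fit; 34 and 352 with 4 samples; 24 and 104 with all 8 libraries; 34 and 39 minus the library mean; 69 and 3393 without a filter; 64 and 1312 with domains joined; and 0 to 330 and 0 to 3335 without 1 library. Genes were 28 and 582 in the reported fit; 5 and 214 with 4 samples; 15 and 246 with 8 libraries; 0 and 0 minus the library mean; 18 and 225 at a mean of at least 20%; 1130 lower without a filter; 69 and 328 at equal length; and 10 to 55 and 383 to 547 without 1 library.

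Bins in mCherry_4 and mCherry_3 alone were 313 and 60 at equal length, 75 and 202 in the highest-scoring 50%, 7 and 52 at 80% against 0, 0 and 9 in 500 kb bins, and 21 to 75 and 150 to 646 without 1 library. Genes alone were 34 and 53 at equal length, 13 and 95 in the highest-scoring 50%, 1 and 75 at 80% against 0, 4 and 70 with 10 kb flanks, and 6 to 29 and 149 to 288 without 1 library. The cause was not tested.

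Replicate numbers shared by the clones showed little pairing of the libraries. Deviations from the clone means correlated at -0.036 between libraries of equal number. With 2 replicates per clone, the value for unequal numbers is fixed at 0.036 and adds nothing. With the replicate block, limma called 0 genes higher and 72 lower and 0 bins in either direction. No named gene's direction turned in the alternatives run, but the difference was 0 for OR2L3, OR2L2, OR2L5, OR2AK2, OR2W3, OR2L8, OR2M5 and OR8J3 without mCherry_3 replicate 2, and for IZUMO3 without replicate 1; joining domains also gave 0 for IZUMO3 and OR8J3. Of the gene values, 86 fell short of the threshold where the reported one passed it, and 12 did the opposite. The count tests on reads and their alternatives were not run, because only 5 domains were identical in all 4 lists.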
